A study of Mus musculus with 2 samples.

Results

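Interferon-stimulated antiviral genes were examined in mouse CD4+ T cells cultured without or with IL-27. The set was a list of 42 genes that interferons are known to raise, drawn up with earlier results of these data known. A gene was used where a probe set was annotated to it alone. This gave 31 genes out of 11807 on the array. The other 11 (Ddx58, Eif2ak2, Oas1a, Isg15, Herc6, Dtx3l, Samd9l, Ifi44, Xaf1, Bst2 and Ly6a) were not analysed here. The cells were naive CD4+ T cells of female C57BL/6J mice (age not given in the labels), taken from spleen and lymph nodes and stimulated for 60 h with plate-bound antibodies against CD3 and CD28. The untreated culture received no IL-27 and the treated culture received 25 ng/ml of the recombinant mouse cytokine, and every other condition named in the labels was shared. Each group was 1 Affymetrix array, so no difference has a replicate check and no test was run. The study's stated purpose was to find transcription factors that IL-27 induces. Whether the cells of a culture came from 1 mouse or from a pool is not given in the sources used here.

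Interferons act through receptors that activate the kinases Jak1, Tyk2 and Jak2. Type I interferon signals reach the interferon-stimulated response element (ISRE) through complexes that contain Irf9, and interferon gamma acts on the gamma-activated site (GAS), through which Irf1 is induced. IL-27, which signals through Il27ra and Il6st, can raise part of the same gene programme in T cells. The products sense viral RNA, block its translation, degrade it or tag proteins with the ubiquitin-like protein Isg15. C57BL/6 mice, like most inbred strains, carry a defective Mx1 allele.

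Promoter windows from RefSeq (GRCm38.p6), which run from 250 bases before to 50 bases after an annotated start, were found for 31 of the 42 listed genes and for 21 of the 31 measured ones. An ISRE-like match was defined as GAAA and GAAA with any 2 bases between them, which reads TTTC and TTTC on the opposite strand, and a GAS-like match as TTC and GAA with any 3 bases between them. Both strands were searched. The stretches that follow were chosen to show both kinds of match in genes on both sides of the array's background level, with the matches in capitals. For Isg20, Irf1, Irf8, Ifit1 and Rsad2 they are the 250 bases before the start of the window that holds the match, and for Ifih1, whose match lies after the start, a short stretch around it. They lie at chr7:78913174-78913423 (Isg20, plus strand), chr11:53769764-53770013 (Irf1, plus), chr8:120736108-120736357 (Irf8, plus), chr19:34640639-34640888 (Ifit1, plus), chr12:26456453-26456702 (Rsad2, minus) and chr2:62646206-62646233 (Ifih1, minus), and each is written 5′ to 3′ on the strand of its gene.
Isg20: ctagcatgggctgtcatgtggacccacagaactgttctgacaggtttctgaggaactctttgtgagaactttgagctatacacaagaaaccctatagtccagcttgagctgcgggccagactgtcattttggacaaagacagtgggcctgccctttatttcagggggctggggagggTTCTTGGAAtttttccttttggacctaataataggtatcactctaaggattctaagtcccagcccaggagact
Irf1: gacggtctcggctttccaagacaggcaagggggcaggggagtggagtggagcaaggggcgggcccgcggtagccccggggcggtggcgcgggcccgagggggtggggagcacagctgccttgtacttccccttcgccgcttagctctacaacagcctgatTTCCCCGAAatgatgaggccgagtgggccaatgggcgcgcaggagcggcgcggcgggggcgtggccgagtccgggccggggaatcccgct
Irf8: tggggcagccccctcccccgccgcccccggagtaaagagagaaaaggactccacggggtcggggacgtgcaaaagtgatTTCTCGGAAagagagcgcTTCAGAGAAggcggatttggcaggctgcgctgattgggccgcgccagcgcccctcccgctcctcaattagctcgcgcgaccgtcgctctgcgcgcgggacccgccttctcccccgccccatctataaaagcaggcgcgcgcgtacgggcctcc
Ifit1: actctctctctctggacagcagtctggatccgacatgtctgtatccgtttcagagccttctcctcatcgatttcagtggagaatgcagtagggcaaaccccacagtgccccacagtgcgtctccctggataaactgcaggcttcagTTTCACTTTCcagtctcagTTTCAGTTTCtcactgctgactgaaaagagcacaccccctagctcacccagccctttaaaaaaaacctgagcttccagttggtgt
Rsad2: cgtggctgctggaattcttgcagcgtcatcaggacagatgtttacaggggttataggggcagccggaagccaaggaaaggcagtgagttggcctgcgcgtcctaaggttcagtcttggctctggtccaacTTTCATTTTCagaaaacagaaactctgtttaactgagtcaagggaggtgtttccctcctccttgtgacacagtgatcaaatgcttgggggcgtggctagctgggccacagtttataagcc
Ifih1: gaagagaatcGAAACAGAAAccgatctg

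ISRE-like matches were present in windows of 11 of the 31 listed genes with a window (35.5%) and in 3.99% of all 27025 genes with a window, counting a gene with several windows once. GAS-like matches were present in 9 of the 31 (29.0%) and in 9.55% of all genes. Members were listed for their known response to interferon, so these shares describe the list and were not tested. In Ifit1 the ISRE-like matches began 104 and 85 bases before the start, and in Rsad2 the match began 120 bases before it. The GAS-like match of Irf1 began 90 bases and that of Isg20 73 bases before the start of its window. Those of Irf8 began 171 and 153 bases before it. Irf1, Isg20 and Irf8 also have windows at other annotated starts, and those held neither motif. The windows of Bst2, Eif2ak2 and Oas1a held both motifs, and in Bst2 a GAS-like and an ISRE-like match overlapped. A window without a match lacks only these letters.

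**Figure D1:**
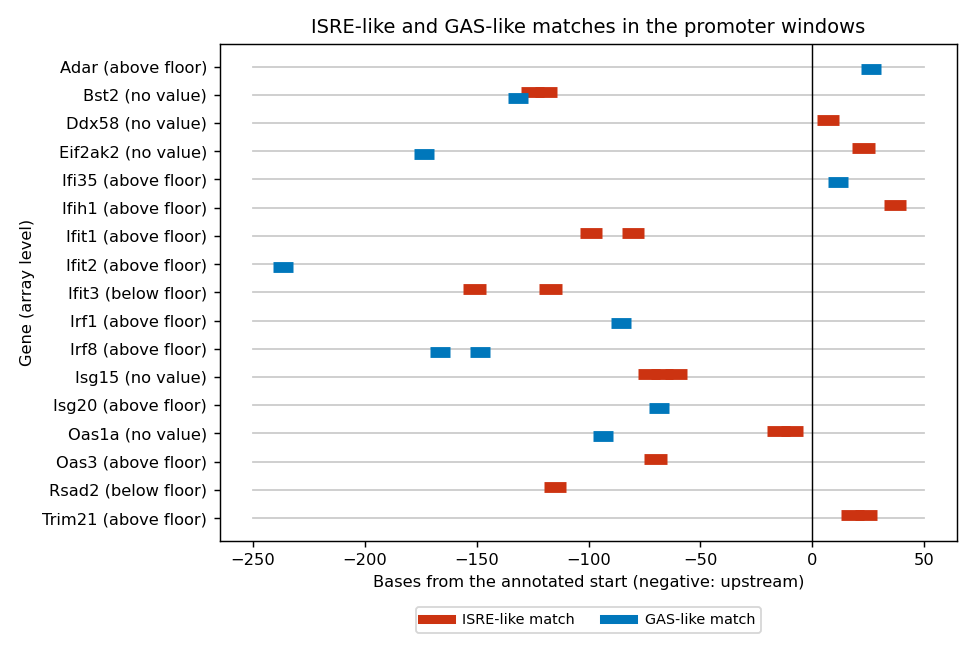
Positions of ISRE-like matches (red) and GAS-like matches (blue) in the promoter windows of the 17 members that hold one, in bases from the annotated start. Each gene is marked by whether its array level was above the background floor, and the red and blue bars are drawn just above and below each gene's line. The matches of Ifit1, Ifit3 and Rsad2 lie upstream of the start, and those of Ifih1 and Trim21 after it.

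The arrays were alike as a whole, with a Pearson r of 0.989 between their log2 intensities across 22716 probe sets, which are not independent replicates. A background floor was set at an intensity of 27.6, the 95th percentile of 44 genes of other tissues such as liver and brain, and 6720 genes were above it in at least 1 culture. All 10 measured markers of CD4+ T cells were above the floor on both arrays, among them Cd4 at 343 and 395. Markers of other cells were mostly below it, with 0 of 7 B cell, 0 of 5 conventional dendritic cell and 0 of 5 granulocyte genes above. The exceptions were Cd8b1, Cd68, Pacsin1, Klrd1, Klrk1 and Eomes, several of which activated T cells can also express. The only internal measure of error was the agreement of probe sets of the same gene. Over 2022 genes with at least 2 probe sets above the floor on both arrays, the log2 differences of a gene spanned 0.19 at the median and 0.48 at the 90th percentile, which covers error between probes and not between cultures. Intensities are on the linear scale of the deposited table, given in the order untreated, IL-27-treated, and a difference is the log2 intensity of the array labelled IL-27-treated minus that of the array labelled untreated.

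The antiviral genes lay mostly, and by small amounts, on the higher side in the culture labelled IL-27-treated, with a few larger differences in both directions. Ifi27l2a was 2.79-fold and Isg20 2.04-fold higher, and Ly6c1 was 6.54-fold lower. Over the whole array, 6720 of 11807 genes were above the floor on at least 1 array. Of the 31 measured members, 24 were above it on at least 1 array and 7 on neither. Of these 24 genes, 2 passed 2-fold upward, against a background of 1.53% of all genes above the floor, and 1 was at least 2-fold lower, against 2.75%. At 1.5-fold, 5 of the 24 were higher, against 5.19%, and 3 were lower, against 7.29%. A total of 18 of the 24 were higher by any amount, against 52.4%. The median difference of the 24 was 0.25, and it was 0.02 over all 6720 genes. The filter takes in 3 members through 1 array alone (Irf7 and Oas3 through the IL-27 array and Oasl1 through the untreated one), so the counts are also given without it. Of the 21 members above the floor on both arrays, 16 were higher by any amount, against 53.0% of 6418 genes, and their median was 0.21. By 2-fold, 2 of the 21 were higher and 1 lower, against 69 and 133 of the 6418 genes. By 1.5-fold, 5 were higher and 2 lower, against 293 and 394, since Oasl1 no longer counted as lower. Over all 31 measured members, without a floor, 23 were higher by any amount, against 48.0% of 11807 genes, and the median was again 0.21. Bulk RNA cannot separate more RNA per cell from more cells that express a gene.

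**Figure D2:**
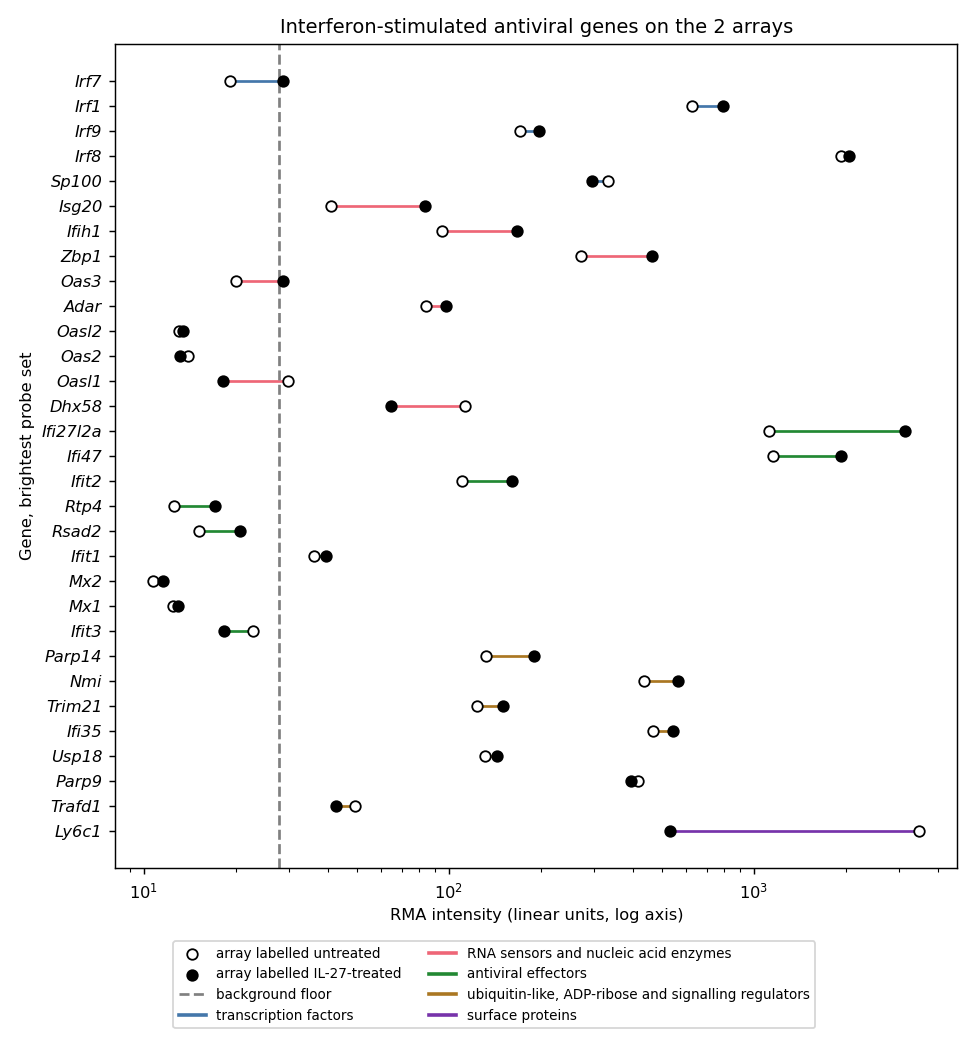
Intensity of each of the 31 measured members in the untreated (open points) and the IL-27-treated culture (filled points), as labelled, on a log axis, with lines coloured by role and the background floor dashed. Most lines run a short way to the right from the open to the filled point, Ly6c1 runs from 3482 to 533, and 7 members lie left of the floor on both arrays.

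Among the transcription factors all 5 members were measured. All lay within 1.5-fold by measured difference, Irf7 narrowly and with its untreated value below the floor. Irf1, a factor induced by interferon gamma that drives many of the other genes, had intensities of 629 and 794, a difference of 0.34. Irf9, a DNA-binding factor of the type I interferon response, had 172 and 197, a difference of 0.20. Irf8, a factor of myeloid and lymphoid cells that also acts in interferon responses, had 1934 and 2049.8 by its brighter probe set, a difference of 0.08, and 0.25 by the other. These differences were positive for each of the 3 factors, and all were below the 0.48 that bounded 90% of the disagreements between probe sets.

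Irf7, the factor that amplifies type I interferon production, stood at 19.2 and 28.6. It narrowly passed the floor in the culture labelled IL-27-treated and was thus at least 1.03-fold higher. Its measured difference of 0.58 was just short of 1.5-fold. With the median of each array subtracted, or with quantile normalization, it was 0.61, just past 1.5-fold. Sp100, a component of nuclear bodies that restrains viral gene expression, was the only one of the 5 on the lower side, at 333 and 295, a difference of -0.18.

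Sensors of viral RNA differed in direction. Ifih1, which encodes the RNA sensor MDA5 and carries an ISRE-like match after its start, had intensities of 94.8 and 167 and was 1.76-fold higher with IL-27 as labelled, a difference of 0.82. Dhx58, which encodes LGP2, a relative of MDA5 that tunes its signalling, had 113 and 64.6 and was 1.75-fold lower, a difference of -0.81. The other 2 probe sets of Dhx58 were below the floor on both arrays, with differences of -0.11 and 0.19, so the lower value rests on 1 probe set, and the mean of the 3 was below the floor. By 1 probe set each, Ifih1 and Dhx58 differed in opposite directions by similar amounts.

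Zbp1, a sensor of Z-form nucleic acids that can start necroptosis, had 272 and 464 by its brighter probe set, 1.71-fold higher, and both of its probe sets were on the higher side, with differences of 0.77 and 0.53. Adar, an enzyme that edits double-stranded RNA and so restrains its sensing, differed little, at 84.1 and 97.6, a difference of 0.21.

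Isg20, an exonuclease that degrades viral RNA and whose promoter sequence with a GAS-like match is shown above, had intensities of 41.0 and 83.6. It was 2.04-fold higher, a difference of 1.03, which placed it just past 2-fold. With a pseudocount of 16 added before log2 the difference was 0.81, short of 2-fold. None of the other 8 measured sensors and nucleic acid enzymes was 2-fold apart.

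Oligoadenylate synthetases make the messenger that activates RNase L, and the 4 measured members of this family and its synthetase-like relatives were below the floor on at least 1 array. Oas1b and Oas1g, of the broader list described further on, were just above it on both, at 41.2 and 45.4 and at 32.4 and 31.6. Oas2 had intensities of 13.9 and 13.1, and Oasl2, a synthetase-like protein, 13.0 and 13.4. Oas3 was at 20.0 and 28.6, at least 1.04-fold higher, and Oasl1, a synthetase-like protein that represses Irf7 translation, at 29.6 and 18.1, at least 1.07-fold lower. Both crossed the floor narrowly, and their measured differences were 0.51 and -0.71.

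Antiviral effectors fell into a detected and an undetected class. Ifi27l2a, a small interferon-induced membrane protein, had intensities of 1119 and 3119, 2.79-fold higher, a difference of 1.48 and the largest positive one among the 31 measured members. Among the 6720 genes above the floor it ranked 47 from the highest. Ifi47, an interferon-inducible GTPase of the IRG family, had 1155 and 1935 and was 1.67-fold higher, a difference of 0.74.

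The Ifit genes encode proteins that bind foreign RNA and block its translation, and they sit in 1 cluster on chromosome 19. Ifit2 had intensities of 111 and 161, a difference of 0.54. Ifit1 was near the floor at 36.1 and 39.6, a difference of 0.13, and Ifit3 was below it at 22.7 and 18.3. The 3 members of the family were therefore not alike in level relative to background, and Ifit2 alone exceeded the disagreement between probe sets.

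Several classical type I interferon effectors were below the floor on both arrays. Mx1 and Mx2, dynamin-like GTPases that trap viral components, had intensities of 12.5 and 12.9 and of 10.7 and 11.6. Rsad2, which encodes viperin, an enzyme that makes a chain-terminating nucleotide, had 15.2 and 20.7 by its brightest of 3 probe sets, and the other 2 differed by -0.06 and -0.18. Rtp4, a chaperone of receptors that also binds viral RNA, had 12.6 and 17.1. Together with Oas2, Oasl2 and Ifit3 these are the 7 members with no measurable level, between 10.7 and 22.7, and no fold is given for them. A level below the floor is not particular to them, since only 6720 of all 11807 genes passed it.

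**Figure D3:**
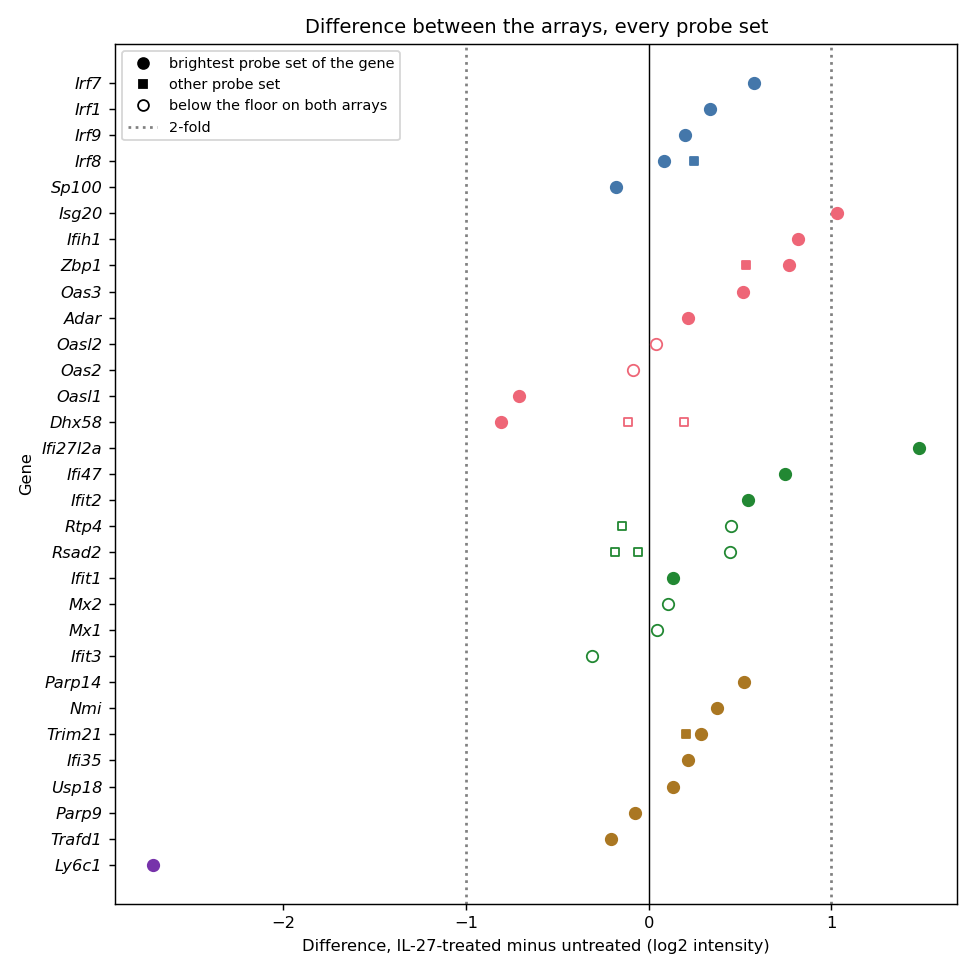
Log2 difference, IL-27-treated minus untreated, for every probe set of the 31 measured members, coloured by role. Circles are each gene's brightest probe set, squares its others, and open symbols were below the floor on both arrays. Ly6c1 lies at -2.71 and Ifi27l2a at 1.48, and the other filled symbols fall between -0.81 and 1.03.

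Regulators linked to ubiquitin-like tags, ADP-ribose and signalling had 7 of 10 members measured. All 7 were above the floor on both arrays and within 1.5-fold. On the higher side were 5 of the 7, against 53.0% of the 6418 genes above the floor on both arrays. Parp14, an ADP-ribosyltransferase, had intensities of 133 and 190.4, a difference of 0.52. Its relative Parp9, which works with the ubiquitin ligase Dtx3l, had 417 and 395, a difference of -0.08. Nmi and Ifi35, partner proteins that bind each other and modulate interferon signalling, both lay on the higher side. Nmi had 435 and 564, a difference of 0.38, and Ifi35 had 467 and 542, a difference of 0.21.

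Trim21, a ubiquitin ligase that is also an intracellular antibody receptor, had 124 and 151, and its probe sets differed by 0.29 and 0.20. Usp18, which removes Isg15 from proteins and blocks signalling at the type I interferon receptor, had 131 and 144, a difference of 0.13. Trafd1, a feedback inhibitor of innate signalling, had 49.3 and 42.7, a difference of -0.21. Of the 7, Parp14 alone differed by more than 0.48.

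Ly6c1 was the only surface protein of the list that was measured and differed more than any other member. Ly6C is a lipid-anchored protein of effector and memory T cells, monocytes and some other leukocytes. Its intensities of 3482 and 533 lie 6.54-fold apart, a difference of -2.71. Among the 6720 genes above the floor it ranked 24 from the lowest. It was read by 1 probe set, and its near-identical neighbour Ly6c2 may contribute to the signal. The macrophage and monocyte markers, cells that also carry Ly6C, had 1 of 9 genes above the floor, Cd68 at 54.9 and 27.5, and their summed intensity was 161 and 132. The NK cell receptor genes Klrd1, at 114 and 16.4, and Klrk1, at 68.2 and 14.7, were lower on the same array as Ly6c1, whereas Klrb1c and Ncr1, which define NK cells, were below the floor on both. Of the 6 NK cell markers measured, 3 were above the floor, the third being Eomes, which went the other way, at 32.8 and 290.4. The summed intensity of the 6 was 249 and 357. It was higher on the array labelled IL-27-treated through Eomes, whereas Klrd1 and Klrk1 were lower. The part of these markers in the Ly6c1 value was not tested.

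Set against the disagreement between probe sets, 7 of the 21 members above the floor on both arrays were higher by more than 0.48 (33.3%), against 7.26% of the 6418 genes. They were Ifi27l2a, Isg20, Ifih1, Zbp1, Ifi47, Ifit2 and Parp14. Dhx58 and Ly6c1 were lower by more than this, 2 of 21 (9.52%), against 8.94%, and the other 12 lay within it. This limit was chosen after the values were seen.

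**Figure D4:**
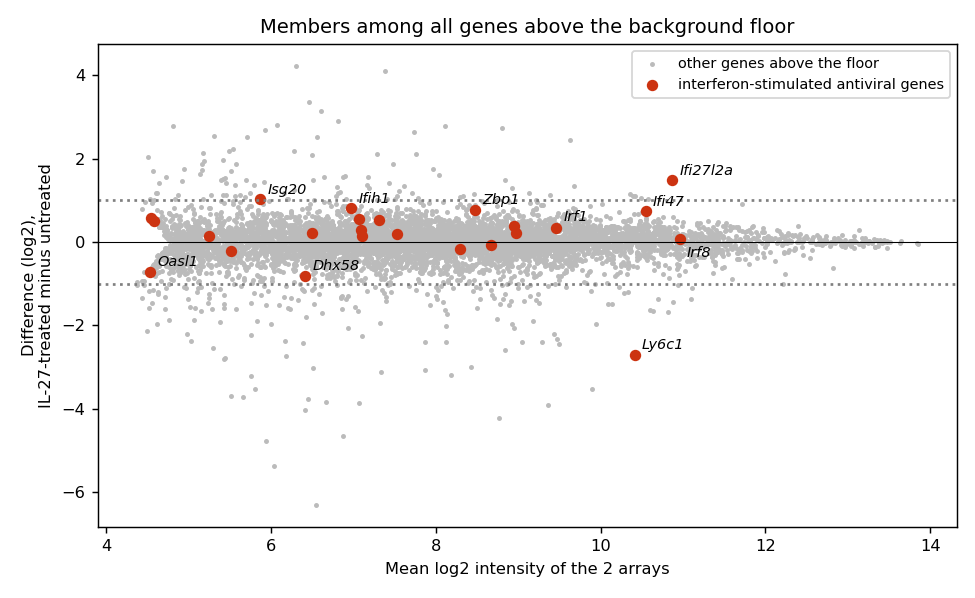
Log2 difference against the mean log2 intensity of the 2 arrays for all 6720 genes above the floor (grey) and for the 24 members among them (red), with 2-fold dotted. Labels mark the members at least 1.5-fold apart, Irf1 and Irf8. Most red points sit just above 0 within the grey cloud. Ifi27l2a and Ly6c1 are the red points farthest from 0, at high intensity, and some grey points lie farther from 0 than either.

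Read by promoter motif, the 6 measured members with a GAS-like match (Adar, Ifi35, Ifit2, Irf1, Irf8 and Isg20) were all above the floor and all on the higher side, by 0.08 to 1.03. Over the whole array 6720 of 11807 genes were above the floor, and 52.4% of those were on the higher side. Of the 31 measured members, with or without a motif, 24 were above the floor and 18 of these were on the higher side. Among the 6, only Ifit2 and Isg20 differed by more than 0.48. Ifi27l2a, Zbp1, Dhx58 and Parp14 had no window and do not enter these counts. The 6 measured members with an ISRE-like match were split, with Ifih1, Ifit1, Oas3 and Trim21 above the floor and on the higher side, by 0.13 to 0.82, and Ifit3 and Rsad2 below it on both arrays. Of the 9 measured members whose windows held neither, 8 were above the floor, 4 higher and 4 lower, from -2.71 for Ly6c1 to 0.74 for Ifi47. In these counts Oas3 and Irf7 passed the floor through the IL-27 array alone and Oasl1 through the untreated one. Their direction was therefore fixed by the filter. These counts describe a few genes, and a match of letters does not show that a factor was bound.

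Genes of interferon reception and signalling outside the list lay on both sides. Of 26 listed, 22 were measured and 20 were above the floor, with 9 on the higher side, 11 on the lower side and a median of -0.04, against 52.4% on the higher side and a median of 0.02 over all genes above it. By 2-fold, 0 were higher and 1, Socs3, was lower, against 1.53% and 2.75%. By 1.5-fold, 2 were higher and 4 lower, against 5.19% and 7.29%. Of the 2 higher, Irf5 passed the floor through the IL-27 array alone. Stat2, a factor of type I interferon responses, had intensities of 58.9 and 62.3, and its probe sets differed by 0.08 and -0.04. Among the receptor chains for type I interferon, Ifnar1 had 114 and 153, a difference of 0.42, and Ifnar2 had 392 and 401, a difference of 0.03.

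The receptor chains for interferon gamma differed in opposite directions by the brightest probe set of each. Ifngr1, the ligand-binding chain, had 399 and 244, a difference of -0.71. Ifngr2, the signalling chain, had 31.2 and 59.9, a difference of 0.94 that starts near the floor. A second, dimmer probe set of Ifngr2 did not reach the floor, at 23.3 and 24.5, and differed by only 0.08. Irf5 was near the floor at 22.6 and 34.9. The adaptor Myd88, at 414 and 264, and the phosphatase Ptpn2, which restrains cytokine signalling, at 2416 and 1599, were lower, by differences of -0.65 and -0.60. Socs3, a feedback inhibitor that STAT3 induces and that IL-27 is known to raise, had 1122 and 186, a difference of -2.59 toward the lower side on the array labelled IL-27-treated. The labels could not be checked with 1 array a group, so directions follow them throughout. If the labels were exchanged, every higher and lower count, fold and rank given here would turn.

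Of the interferon ligands, the 7 type I genes measured, Ifnb1 and 6 interferon alpha genes, were below the floor on both arrays. Ifng, which encodes interferon gamma, had intensities of 73.5 and 124, a difference of 0.75. Ebi3, a chain of IL-27 itself listed with the ligands, had 84.5 and 249.9, a difference of 1.56. Il27, the other chain, was not analysed here.

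A broader list of 77 other interferon-stimulated genes, also drawn up with earlier results known, had 55 measured and 38 above the floor, all on both arrays. Of the 38, 29 were on the higher side and 9 on the lower, with a median of 0.21, against 53.0% on the higher side and a median of 0.02 over all genes above the floor on both arrays. By 2-fold, 2 were higher and 0 lower, against 1.53% and 2.75% of all genes above the floor, and by 1.5-fold, 7 were higher and 1 lower, against 5.19% and 7.29%. Ms4a4c, a tetraspan membrane protein, had intensities of 74.9 and 325, a difference of 2.12, by 1 probe set of a type that can read related genes. Ifitm3, a membrane protein that blocks virus entry, had 105 and 283, a difference of 1.43. Ms4a4b, a tetraspan protein of T cells, had 2455 and 4607, a difference of 0.91.

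Isoc1 had 454 and 786, and all 4 of its probe sets were on the higher side, by 0.79 to 1.04. Lgals9, which encodes galectin-9, and Lgals3bp, a secreted galectin-binding protein, differed by 0.74 and 0.68. Pml, which like Sp100 belongs to nuclear bodies, was the gene at least 1.5-fold lower, at 201 and 129, a difference of -0.64, and is named outside the naming rule after its values were seen.

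**Figure D5:**
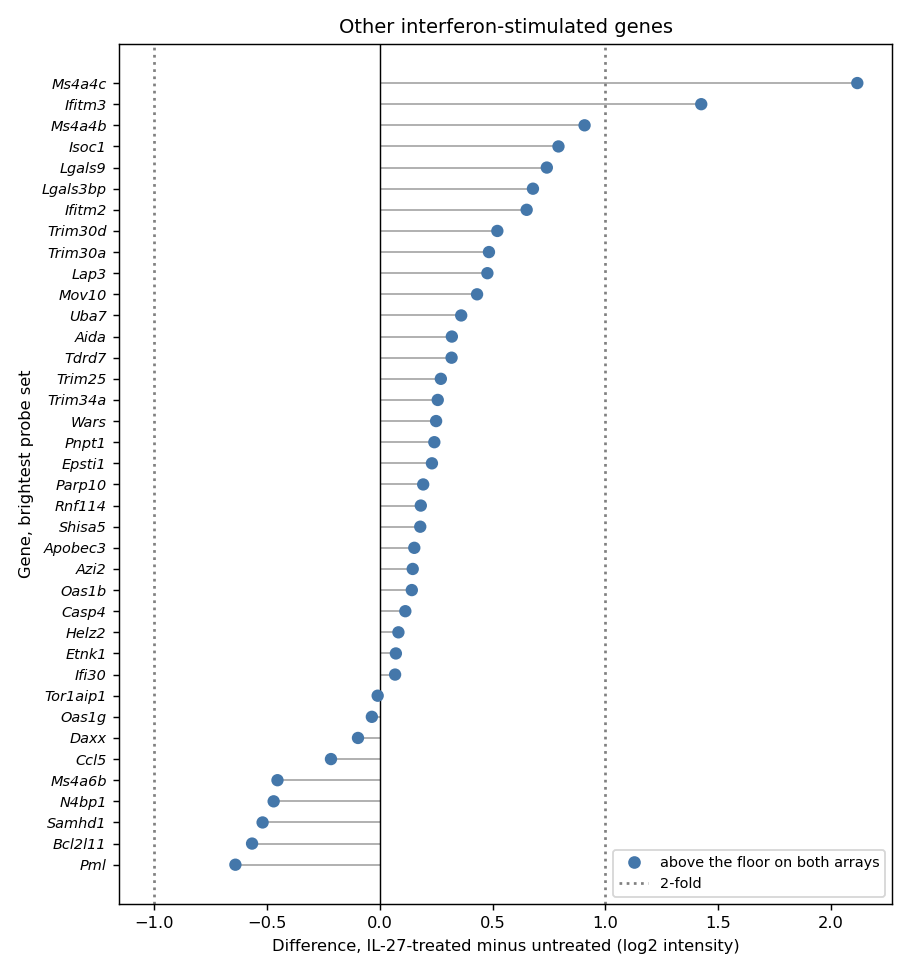
Log2 difference, IL-27-treated minus untreated, for the 38 other interferon-stimulated genes above the floor, by each gene's brightest probe set, with 2-fold dotted. A total of 29 points lie right of 0, led by Ms4a4c at 2.12 and Ifitm3 at 1.43, and 9 lie left of it, with Pml lowest at -0.64.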

How the data were processed

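Gene expression was measured in 1 untreated and 1 IL-27-treated culture, on 1 array each. The deposited table holds 1 linear intensity per probe set, made by the authors with RMA per the submitters' processing notes (version and settings not stated in these sources). This method corrects background, makes array distributions alike and compresses dim differences, and it hides any change in RNA content per cell. The table used here holds no detection calls.

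The platform annotation gave 18003 of the 22716 probe sets a single gene symbol, 287 several and 4426 none, and those with a single one were used. All 31 measured members matched a RefSeq gene identifier (GRCm38.p6) with 0 symbols changed. Intensities were converted to log2 with no pseudocount and no further normalization, in Python 3.11.15 with pandas 2.3.3 and statsmodels 0.14.6. A gene was represented by its probe set with the highest mean level. The floor was the 95th percentile of 44 measured genes of other tissues, 3 of which exceeded it on at least 1 array. For a gene detected on 1 array alone, the fold printed is a lower bound, its detected intensity over the floor. With 1 array a group no test was possible, and the number of arrays limits the precision.

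Values are given for members at least 1.5-fold apart, the interferon regulatory factors and, by role, the rest; from each other pathway list, for up to 6 genes with the largest absolute difference, plus Stat2 and the receptor chains for type I interferon and interferon gamma. Genes named beyond this were chosen after their values were seen. The members, lists, rule and thresholds were chosen with earlier results of these data known. Alternatives covered the floor, dim values, normalization, probe set choice, pseudocount and fold. The code that counts calls was run on simulated data with changes larger than 2-fold in genes well above the floor. That run checks the code alone. It cannot show how reliable the smaller or dimmer differences given here are, or how much cultures vary.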

Additional observations from a re-analysis of the deposited data

How the results depend on the processing

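Between 19 and 31 members entered the counts under the alternatives tried: no floor, a floor 2 times as high, dim values raised to the floor, median subtraction, quantile and loess normalization, the mean or the dimmest probe set, a pseudocount of 16 and, added after seeing the data, the floor on both arrays. The count of members at least 2-fold higher was 2 under each of these except the pseudocount, where it was 1 because Isg20 fell short at 0.81. With a threshold of 1.5-fold, 5 members were higher and 3 lower. The 3 lower included Oasl1, which passed the floor on the untreated array alone. The median stayed between 0.21 and 0.29. The members higher by any amount numbered from 15 of 19 with the higher floor to 23 of 31 with no floor, against 53.3% and 48.0% of all genes. Median subtraction and quantile or loess normalization turned the sign of 0 of the 24 members above the floor. Raising dim values to the floor moved Oasl1 from -0.71 to -0.10 and Irf7 from 0.58 to 0.05. The share of all genes on the higher side was 57.1% after median subtraction and 48.7% after loess. With 1 array a group, no value separates IL-27 from variation between cultures, and levels below the floor cannot be ranked.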
